A study of Mus musculus with 8 samples.

Results

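The expression of 8 genes of cholesterol synthesis and its control was examined in total splenocytes of Balb/c mice. The 8 genes were Hmgcs1, Idi1, Fdft1, Sqle, Cyp51, Dhcr7, Srebf2 and Insig1, chosen by name with earlier results of these data known. All 8 were found by their Ensembl identifiers among the 51826 genes counted. None of them encodes a receptor for cholesterol uptake, and the genes of uptake are given further on from a separate list. RNA was sequenced from 4 mice labelled control and 4 labelled as treated with tRA (all-trans-retinoic acid), the active metabolite of vitamin A, and all spleens were taken at 3 months of age. By the study's own description the mice were female, tRA was dissolved in canola oil and given by mouth every day from weaning, the controls were dosed with the oil alone, and pristane, the oil with which lupus was induced elsewhere in the study, was not injected. The treatment text of the labels gives tRA at 1 mg/kg body weight for all 8 samples, controls included, which goes against the sample titles, and the groups used here follow the titles. The cells had passed through lysis of red blood cells, and the labels place all libraries on a single lane and name no batch.

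Cells build cholesterol from acetyl-CoA by way of mevalonate and farnesyl diphosphate, which is joined into squalene, closed into the sterol lanosterol and trimmed to cholesterol, while side branches lead to dolichol, ubiquinone and the lipid anchors of proteins. Most genes of the route are switched on together by the transcription factor SREBP2, which SCAP carries out of the endoplasmic reticulum when sterols are scarce and INSIG proteins hold back when sterols are plentiful. Lymphocytes draw on this route when they grow and divide.

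Total counts ranged from 30919272 to 37539631 in the control mice and from 31810417 to 35165876 in the tRA mice. All 12 comparisons of a mouse with another of its own group showed differences beyond sampling noise (chi-square divided by its degrees of freedom, 12.9 to 65.4), so that no library appeared to be present more than once within a group, and libraries were not compared across the groups in this way. The study describes each group as 4 mice, and p-values measure the spread between them. Levels are CPM values, that is counts put on a common library size by TMM scaling, and fold changes are those of tRA over control on the log2 scale from edgeR's quasi-likelihood test, with the Benjamini-Hochberg adjusted p (FDR) over the 16484 genes that passed the filter on low counts.

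All 8 genes passed that filter, and each was expressed in every mouse. Of the 8 genes, 0 differed between tRA and control at an FDR under 0.1 by edgeR, where 0 of the 16484 genes tested (0%) did, and the lowest FDR over all genes was 0.135. At an unadjusted p under 0.05 there were 0 of the 8 genes against 1070 of all genes tested (6.49%). DESeq2 and limma-voom also called 0 of the 8, with 27 and 1 genes called in all. The log2 fold change was negative for 6 of the 8 genes and positive for Hmgcs1 and Sqle, against negative values for 8194 of all genes tested (49.7%). The median over the 8 genes was -0.096 and that over all genes tested 0.0014. The values of the tRA and control mice overlapped for all 8 genes, whereas all 4 tRA values lay above all 4 control values for 315 of all genes tested (1.91%) and below them for 269 (1.63%). As total splenocytes are a mixture, fewer cells of a type and less RNA per cell cannot be told apart in any of these values.

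**Figure D1:**
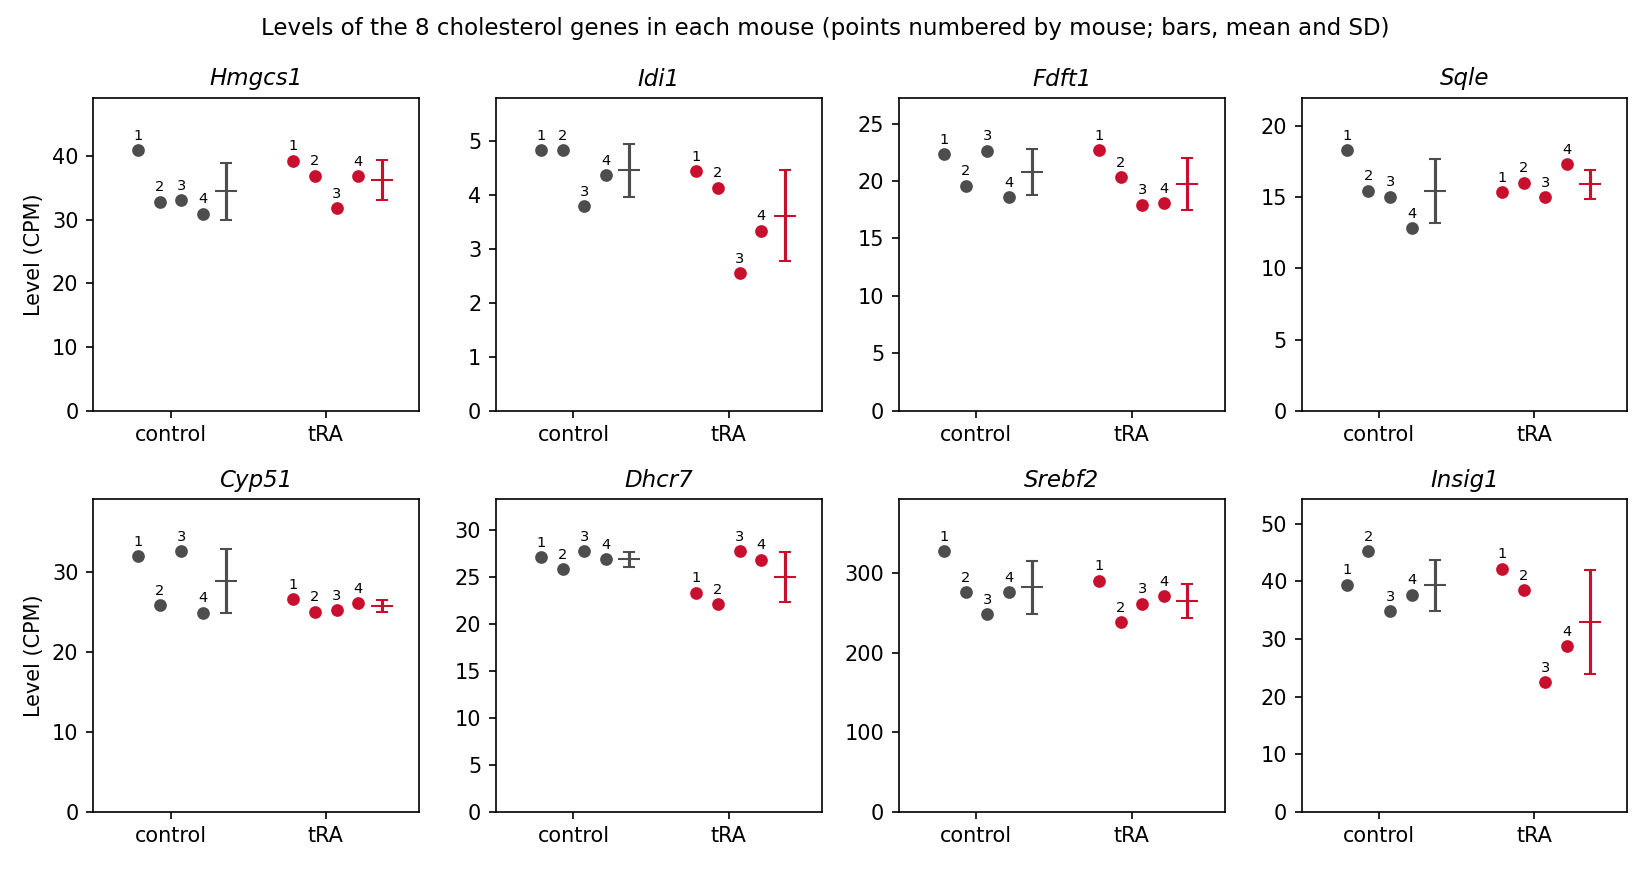
Level of each of the 8 genes in CPM (vertical axes, starting at 0) in the 4 control mice (grey) and the 4 tRA mice (red), each point numbered by mouse, with the mean and SD of each group as a bar beside the points. The groups overlap in all 8 panels, and tRA mice 3 and 4 have the lowest values of Idi1 and Insig1.

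Srebf2 (ENSMUSG00000022463, chr15:82147181-82205379, plus strand) encodes SREBP2, the transcription factor that drives the route. Its level was 328, 277, 249 and 276 CPM in control mice 1 to 4 and 291, 239, 262 and 272 CPM in tRA mice 1 to 4. The first mouse of each group had the highest value of its group, the lowest value of all was that of tRA mouse 2, and the groups overlapped. The means were 282 ± 33.0 CPM (SD, n = 4) with control and 266 ± 21.5 CPM (SD, n = 4) with tRA. This gave a log2 fold change of -0.09 (SE 0.09, 95% interval -0.29 to 0.12, edgeR FDR 0.868), less than the spread between mice, and it was -0.0079 without control mouse 1 and -0.15 without control mouse 3. With at least 7584 counts in each mouse, counting error (1.04% of the mean) was a small part of the spread among the control mice, 11.7%.

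Insig1 (ENSMUSG00000045294, chr5:28071363-28078662, plus strand) encodes a protein of the endoplasmic reticulum that retains SCAP and SREBP2 when sterols are plentiful, and it is itself a target of SREBP2. Its level was 39.4, 45.2, 34.8 and 37.7 CPM in control mice 1 to 4 and 42.2, 38.4, 22.5 and 28.8 CPM in tRA mice 1 to 4. Thus tRA mice 1 and 2 lay within the range of the control mice, while tRA mice 3 and 4 lay below every control mouse. The coefficient of variation was 11.1% in the control mice and 27.2% in the tRA mice, against a counting error of 2.88%, and the difference in spread was not tested. The log2 fold change was -0.25 (SE 0.17, 95% interval -0.63 to 0.13, edgeR FDR 0.796). It was -0.39 without tRA mouse 1 (unadjusted p = 0.0328, edgeR FDR 0.357), -0.11 without tRA mouse 3, and 0.036 when both tRA mice 3 and 4 were left out. That last setting was chosen after seeing the data. As tRA mice 3 and 4 had the lowest Insig1, leaving them out had to raise the value, so that it is no test.

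Hmgcs1 (ENSMUSG00000093930, chr13:119690379-119708260, plus strand) encodes the cytosolic HMG-CoA synthase, an early enzyme on the way to mevalonate. Its level was 41.0, 32.8, 33.1 and 31.0 CPM in control mice 1 to 4 and 39.3, 36.9, 31.8 and 36.9 CPM in tRA mice 1 to 4. Control mouse 1 had the highest and control mouse 4 the lowest value, so that the range of the tRA mice lay inside that of the controls. The means were 34.5 ± 4.44 CPM (SD, n = 4) with control and 36.2 ± 3.17 CPM (SD, n = 4) with tRA, and the log2 fold change was 0.07 (SE 0.10, 95% interval -0.15 to 0.30, edgeR FDR 0.898). It was 0.024 without control mouse 4 and 0.17 without control mouse 1 (unadjusted p = 0.0931). Over 557 bases, or 12.1% of its exon length, Hmgcs1 overlaps the antisense gene Gm48342, and the library kit does not mark strand, so that reads of such overlaps cannot be told apart.

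Idi1 (ENSMUSG00000058258, chr13:8885501-8892451, plus strand) encodes isopentenyl-diphosphate isomerase, which supplies both building blocks of the isoprenoid chain. The level was 4.82, 4.82, 3.79 and 4.36 CPM in control mice 1 to 4 and 4.43, 4.13, 2.55 and 3.33 CPM in tRA mice 1 to 4. As with Insig1, tRA mice 3 and 4 lay below all control mice and tRA mice 1 and 2 among them. The counts behind these values were few, between 94 and 178 per mouse, which gives a counting error of 8.61% against a coefficient of variation of 11.1% in the control and 23.4% in the tRA mice. Idi1 had the most negative value of the 8 genes, a log2 fold change of -0.30 (SE 0.19, 95% interval -0.72 to 0.11, edgeR FDR 0.793). It was -0.17 without tRA mouse 3, -0.42 without tRA mouse 1 and -0.057 with both tRA mice 3 and 4 left out. The last value is no test, as the mice left out had the lowest Idi1. Of the stretches of 50 bases in its annotated transcripts, 25.3% also occur in transcripts of other genes, most of them in the processed pseudogene Gm13502, and how the counting treated such reads is not given in the sources used here, so that the level of Idi1 is uncertain.

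Fdft1 (ENSMUSG00000021273, chr14:63145150-63179578, minus strand) encodes squalene synthase, the step that commits farnesyl diphosphate to sterols. Its level was 22.3, 19.6, 22.7 and 18.6 CPM in control mice 1 to 4 and 22.7, 20.3, 17.9 and 18.1 CPM in tRA mice 1 to 4. The highest values of both groups were nearly equal, and tRA mice 3 and 4 were the lowest of all, by less than 1 CPM below control mouse 4. Its log2 fold change was -0.07 (SE 0.10, 95% interval -0.31 to 0.16, edgeR FDR 0.898). It was -0.15 without tRA mouse 1, -0.031 without tRA mouse 3, and 0.048 with both tRA mice 3 and 4 left out. The last value is again no test, as these mice had the lowest Fdft1. Over 774 bases, or 18.3% of its exon length, Fdft1 overlaps exons of Ctsb on the opposite strand, and 26.5% of its stretches of 50 bases also occur in other genes, most of them in Ctsb, so that its level is uncertain as well. Idi1 and Cyp51 have smaller overlaps of this kind, with Gm48574 (9.22%) and Akap9 (3.76%).

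Sqle (ENSMUSG00000022351, chr15:59315077-59331192, plus strand) encodes squalene epoxidase, a rate-limiting enzyme of the later route. The level was 18.3, 15.5, 15.1 and 12.8 CPM in control mice 1 to 4 and 15.4, 16.0, 15.0 and 17.3 CPM in tRA mice 1 to 4. The extremes were both control mice, number 1 at the top and number 4 at the bottom, with the tRA mice between them. The log2 fold change of 0.05 (SE 0.11, 95% interval -0.20 to 0.30, edgeR FDR 0.951) was -0.032 without control mouse 4 and 0.14 without control mouse 1, and its sign turned without control mouse 4 alone.

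Cyp51 (ENSMUSG00000001467, chr5:4081145-4104746, minus strand) encodes lanosterol demethylase, the enzyme that removes the first methyl group on the way from lanosterol to cholesterol. Its level was 32.0, 25.9, 32.6 and 24.9 CPM in control mice 1 to 4 and 26.6, 25.0, 25.2 and 26.1 CPM in tRA mice 1 to 4. Control mice 1 and 3 lay above all tRA mice, whereas control mice 2 and 4 lay among or just below them. The coefficient of variation was 13.9% in the control and 2.87% in the tRA mice, with a counting error of 3.30%, and this difference in spread was not tested. Between groups, Cyp51 had a log2 fold change of -0.17 (SE 0.10, 95% interval -0.38 to 0.05, edgeR FDR 0.792), which was -0.11 without control mouse 3 and -0.23 without control mouse 4 (unadjusted p = 0.0391, edgeR FDR 0.759).

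Dhcr7 (ENSMUSG00000058454, chr7:143823145-143848410, plus strand) encodes 7-dehydrocholesterol reductase, the last step of one of the routes to cholesterol. The level was 27.1, 25.8, 27.7 and 26.9 CPM in control mice 1 to 4 and 23.3, 22.1, 27.7 and 26.8 CPM in tRA mice 1 to 4. Here tRA mice 1 and 2 lay below every control mouse, whereas tRA mice 3 and 4 were level with the controls. The highest value of all, by a narrow margin, was that of tRA mouse 3. For Insig1 and Idi1 it was instead tRA mice 3 and 4 that lay below every control mouse. The control mice were close together, with a coefficient of variation of 2.95% against 10.8% in the tRA mice. The log2 fold change was -0.10 (SE 0.09, 95% interval -0.30 to 0.09, edgeR FDR 0.834). It was -0.052 without tRA mouse 2 and -0.16 without tRA mouse 3, and it reached -0.24 (unadjusted p = 0.0318, edgeR FDR 1.00) with both tRA mice 3 and 4 left out. As these mice had the highest Dhcr7 of the tRA group, leaving them out had to lower the value, so that this p is no test.

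The 95% intervals bound the differences that these mice allow. As a ratio of tRA to control, the lowest lower bound was 0.608, for Idi1, and the highest upper bound was 1.23, for Sqle, with Hmgcs1 close to it. Insig1 had an interval from 0.644 to 1.09, and that of Srebf2 ran from 0.815 to 1.09. The median log2 fold change of the 8 genes was between -0.14 and -0.069 with each mouse left out in turn. With both tRA mice 3 and 4 left out it was -0.017, but that setting was chosen after the values were seen and is no test.

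Per kilobase of exon length, the level in the control mice was highest for Srebf2 at 39.3 CPM per kb, followed by Insig1 at 12.7, Hmgcs1 at 7.50, Cyp51 at 6.53, Fdft1 at 4.92, Dhcr7 at 4.62, Sqle at 2.78 and Idi1 at 1.27 CPM per kb. The order was the same in the tRA mice, with 37.0 CPM per kb for Srebf2, 10.7 for Insig1, 7.89 for Hmgcs1, 5.83 for Cyp51, 4.67 for Fdft1, 4.30 for Dhcr7, 2.87 for Sqle and 1.03 for Idi1. Among neighbours in this order, the ranges over mice overlapped for Fdft1 and Dhcr7 in both groups, for Hmgcs1 and Cyp51 in the control mice and for Insig1 and Hmgcs1 in the tRA mice, and they lay apart for the other neighbours. Exon length here is that of all annotated exons of a gene merged, not of the transcripts expressed, so that the order depends on the annotation. The places of Idi1 and Fdft1 are also uncertain, for the reasons given above.

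No mouse was high or low for all 8 genes. Control mouse 1 ranked first among the 8 mice for 3 genes, Hmgcs1, Sqle and Srebf2. Control mouse 4 had the lowest value for Hmgcs1, Sqle and Cyp51, and tRA mouse 3 had the lowest for Idi1, Insig1 and Fdft1 while having the highest value for Dhcr7. The mean of the standardized log2 levels, taken after the group means were removed, was highest in control mouse 1 (0.98) and lowest in control mouse 4 (-0.72) and tRA mouse 3 (-0.65).

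To see which of the genes varied together among mice, 28 pairs were compared over the 8 mice after the group means were removed, with an exact permutation within groups. Pearson's r was positive for 22 pairs and negative for 6, with a median of 0.279. Idi1 and Insig1 went together most closely, with r = 0.970 and Spearman's rho = 1 (exact permutation p = 0.00174 for both, the smallest that the 576 permutations can give, and 0.0486 adjusted over the 28 pairs). Without tRA mouse 3 and control mouse 3, the mice farthest from the median of Idi1, r was 0.954. For each r with mice left out, the group means were those over all 8 mice and were not taken anew. Such an r can therefore hold a difference between the groups and is no full check on single mice. Hmgcs1 and Sqle had r = 0.778 and rho = 0.619 (exact permutation p = 0.0486 and 0.153, adjusted 0.299 and 0.535), and r was lower, 0.567, without control mouse 1 and tRA mouse 3. Dhcr7 went against Insig1 with r = -0.918 and rho = -0.929 (exact permutation p = 0.0347 and 0.0278, adjusted 0.299 and 0.259), and r was -0.920 without tRA mice 3 and 1. It went against Idi1 with r = -0.868 and rho = -0.929 (exact permutation p = 0.0434 and 0.0278, adjusted 0.299 and 0.259), and r was -0.830 without tRA mouse 3 and control mouse 3. After adjustment the pair of Idi1 and Insig1 alone was under 0.05.

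**Figure D2:**
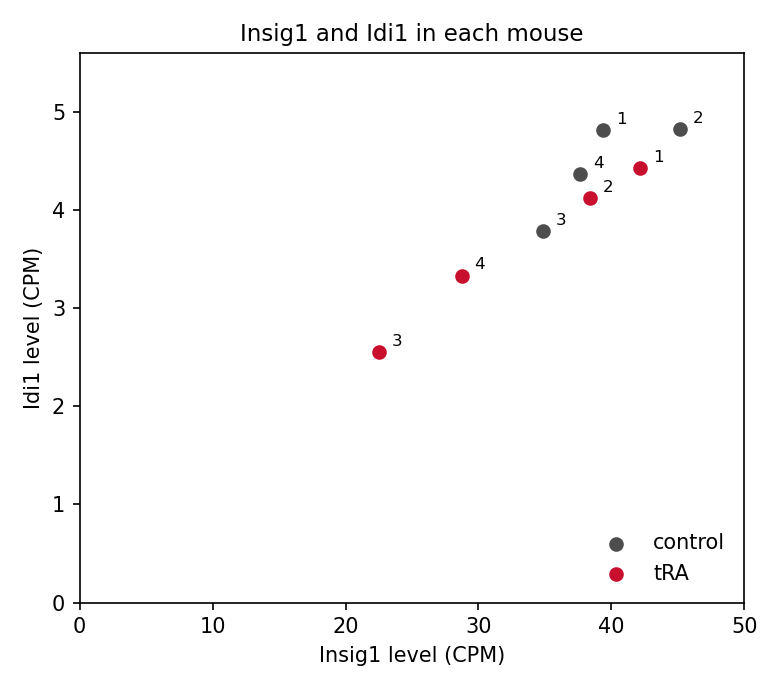
Level of Idi1 (vertical axis, CPM) against that of Insig1 (horizontal axis, CPM) in each of the 4 control mice (grey) and 4 tRA mice (red), numbered by mouse. The mice lie along a line from tRA mouse 3, with 22.5 CPM of Insig1 and 2.55 CPM of Idi1, to control mouse 2, with 45.2 and 4.82 CPM.

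The 10 genes whose log2 CPM followed the mean of the 8 genes most closely over the 8 mice, among 10478 genes with a mean of at least 5 CPM, were Pfn1 (r = 0.994), Lyn (0.988), Stx7 (0.978), Rnf2 (0.974), Heca (0.973), Bahd1 (0.973), Camk2d (0.972), Tm9sf3 (0.969), Trib2 (0.965) and Mir5107 (0.965). These values were taken after removal of the group means and describe these mice. None of the 10 genes is on the lists of the cholesterol route. Of 55 listed genes outside the 8, 24 had a positive and 31 a negative r. Nus1, a subunit of the enzyme that makes dolichol, came first at rank 360 (r = 0.840), Msmo1 next at rank 520 (r = 0.810) and Mbtps1 last at rank 10306 (r = -0.860).

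Marker genes of cell types and cell states were read in the same mice. B cell markers (5 of 5 tested, highest CPM for Cd79a) summed to 4765 ± 465 CPM (SD, n = 4) with control and 4742 ± 136 CPM (SD, n = 4) with tRA, and T cell markers (5 of 5 tested, highest CPM for Cd4) to 785 ± 82.1 and 858 ± 27.0 CPM. Of 4 genes of kidney and liver, 0 passed the filter, and they summed to at most 1.50 CPM in any mouse. Macrophage markers (5 of 5 tested, highest CPM for Vcam1) summed to 341 ± 47.6 CPM with control and 323 ± 60.1 CPM with tRA, and stromal markers (4 of 4 tested, highest CPM for Cdh5) to 7.46 ± 2.04 and 7.16 ± 2.26 CPM. Erythroid markers (5 of 5 tested, highest CPM for Hba-a1) varied widely, at 286, 559, 779 and 170.0 CPM in control mice 1 to 4 and 746, 234, 1276 and 214 CPM in tRA mice 1 to 4. Neutrophil precursor granule genes (8 of 8 tested, highest CPM for Ngp) summed to 542, 680.0, 715 and 614 CPM in control mice 1 to 4 and 242, 301, 329 and 477 CPM in tRA mice 1 to 4. By edgeR, 8 of 8 had a negative log2 fold change at an unadjusted p under 0.05, against 6.49% of all genes tested in either direction. An edgeR FDR under 0.1 was reached by 0 of 8. All tRA mice lay below all control mice for 6 of the 8, against 1.63% of all genes tested. The marker genes were not run under DESeq2 here. The study, which used DESeq2 at an FDR under 0.1, lists Camp, Ngp and Ltf of these genes as significant.

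The mice with the least Insig1 and Idi1 also had the least RNA of immediate early genes, which cells switch on within minutes of stimulation or stress. The 8 immediate early genes (8 of 8 tested, none at 0, highest CPM for Fosb in the control and Fos in the tRA mice) summed to 16162, 15272, 14388 and 13100.1 CPM in control mice 1 to 4 and 15338, 11847, 5502 and 6972 CPM in tRA mice 1 to 4, so that tRA mice 3 and 4 were lowest. Of these genes 8 had a negative log2 fold change, against 49.7% of all genes tested. By edgeR, 3 had an unadjusted p under 0.05, against 6.49% of all genes tested, and 0 an FDR under 0.1. All tRA mice lay below all control mice for 3 of them, against 1.63% of all genes tested. Over the 8 mice, with group means removed, the sum went with Insig1 at r = 0.934 and rho = 0.905 (exact permutation p = 0.0278 and 0.0521, adjusted 0.185 and 0.278) and with Idi1 at r = 0.901 and rho = 0.905 (exact permutation p = 0.0243 and 0.0521, adjusted 0.185 and 0.278). For Fdft1 r was 0.787 and rho 0.762 (exact permutation p = 0.0313 and 0.0451, adjusted 0.185 and 0.278), and for Hmgcs1 r was 0.622 and rho 0.762 (exact permutation p = 0.0156 and 0.0139, adjusted 0.185 and 0.222). Without tRA mice 3 and 1, r was 0.782 for Insig1, 0.699 for Idi1, 0.601 for Fdft1 and 0.320 for Hmgcs1. Here and below, as for the pairs, the group means were not taken anew without those mice. Dhcr7 had r = -0.870 and rho = -0.857 with the sum, with r = -0.876 without tRA mice 3 and 1, but here p was not under 0.05 (exact permutation p = 0.184 and 0.181, adjusted 0.556 and 0.514). The 8 proliferation genes (8 of 8 tested, none at 0, highest CPM for Mki67) summed to 164, 210.1, 170 and 199 CPM in control mice 1 to 4 and 136, 167, 277 and 173 CPM in tRA mice 1 to 4, highest in tRA mouse 3. Hmgcs1 went against this sum at r = -0.764 and rho = -0.929 (exact permutation p = 0.00868 and 0.00347, adjusted 0.185 and 0.111), and r was -0.701 without tRA mice 3 and 1. Fdft1 also went against it, at r = -0.773 and rho = -0.810 (exact permutation p = 0.0347 for both, adjusted 0.185 and 0.278), with r = -0.745 without tRA mice 3 and 1. These relations belong to a family of 32, the 8 genes against 4 marker lists, computed after the values were seen. Of the 32, 6 had an unadjusted p under 0.05 for r, all of them given here, and 0 had an adjusted one. The part of cell state or cell makeup in the levels of the 8 genes was not tested beyond these relations.

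The 8 genes were set beside the rest of the route by lists of its steps. Of 68 listed genes, 65 passed the filter, and Vldlr, Ch25h and Me1 did not. At an FDR under 0.1, 0 of the 65 were called by edgeR, and 2 had an unadjusted p under 0.05, Ebp and Mylip, against 6.49% of all genes tested. Among the 18 synthesis genes, 6 of which belong to the 8, the log2 fold change was positive for 5 and negative for 13 with a median of -0.059. Sc5d, a sterol desaturase with a value of -0.011, was positive with library size alone (0.014). Without the 8 genes, 12 synthesis genes remained, 3 positive and 9 negative, with a median of -0.057.

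In the mevalonate steps, Acat2, which joins acetyl-CoA units, had a log2 fold change of -0.14 (edgeR FDR 0.814), and the kinase and decarboxylase genes Mvk, Pmvk and Mvd had 0.031, -0.21 and -0.11. Fdps, for farnesyl diphosphate synthase, had -0.045. Acat2 and Fdps share 39.1% and 26.2% of their stretches of 50 bases with other genes, so that their values are uncertain. Among the squalene steps Lss, which closes the sterol rings, had 0.07. From lanosterol onward the values were 0.06 for the reductase gene Tm7sf2, -0.06 for Msmo1, -0.06 for Nsdhl and -0.06 for Hsd17b7, the last 3 of which together remove methyl groups. Ebp, the sterol isomerase a few steps before Dhcr7, stood at 34.6, 34.4, 37.6 and 33.8 CPM in control mice 1 to 4 and 33.0, 29.0, 31.3 and 28.3 CPM in tRA mice 1 to 4. It was the sole gene of the 65 for which all tRA mice lay below all control mice, as they did for 1.63% of all genes tested, with a log2 fold change of -0.21 (SE 0.08, unadjusted p = 0.0191, edgeR FDR 0.757), which did not pass the adjustment over all genes tested.

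Of the 9 genes of SREBP control, 5 had a positive and 4 a negative log2 fold change, with a median of 0.0017 and 0 called. Beside Srebf2 and Insig1 the values were 0.0028 for Srebf1, the factor that favours fatty acid genes, 0.0017 for Scap and -0.042 for Insig2. The protease genes Mbtps1 and Mbtps2, whose products release SREBPs in the Golgi, had 0.08 and 0.0053. The ubiquitin ligase genes Rnf139 and Rnf145, which act on protein turnover in the route, had 0.14 and -0.05. The values of Scap, Srebf1 and Mbtps2 lay so close to 0 that their sign changed when single mice were left out. Exons of other genes overlap 28.4% of the exon length of Mbtps2 (Yy2, same strand), 22.3% of that of Rnf139 (Tatdn1, opposite strand), 13.2% of that of Scap (5830462I19Rik, opposite strand) and 12.1% of that of Tm7sf2 (Vps51, same strand), so that these values are uncertain as well.

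**Figure D3:**
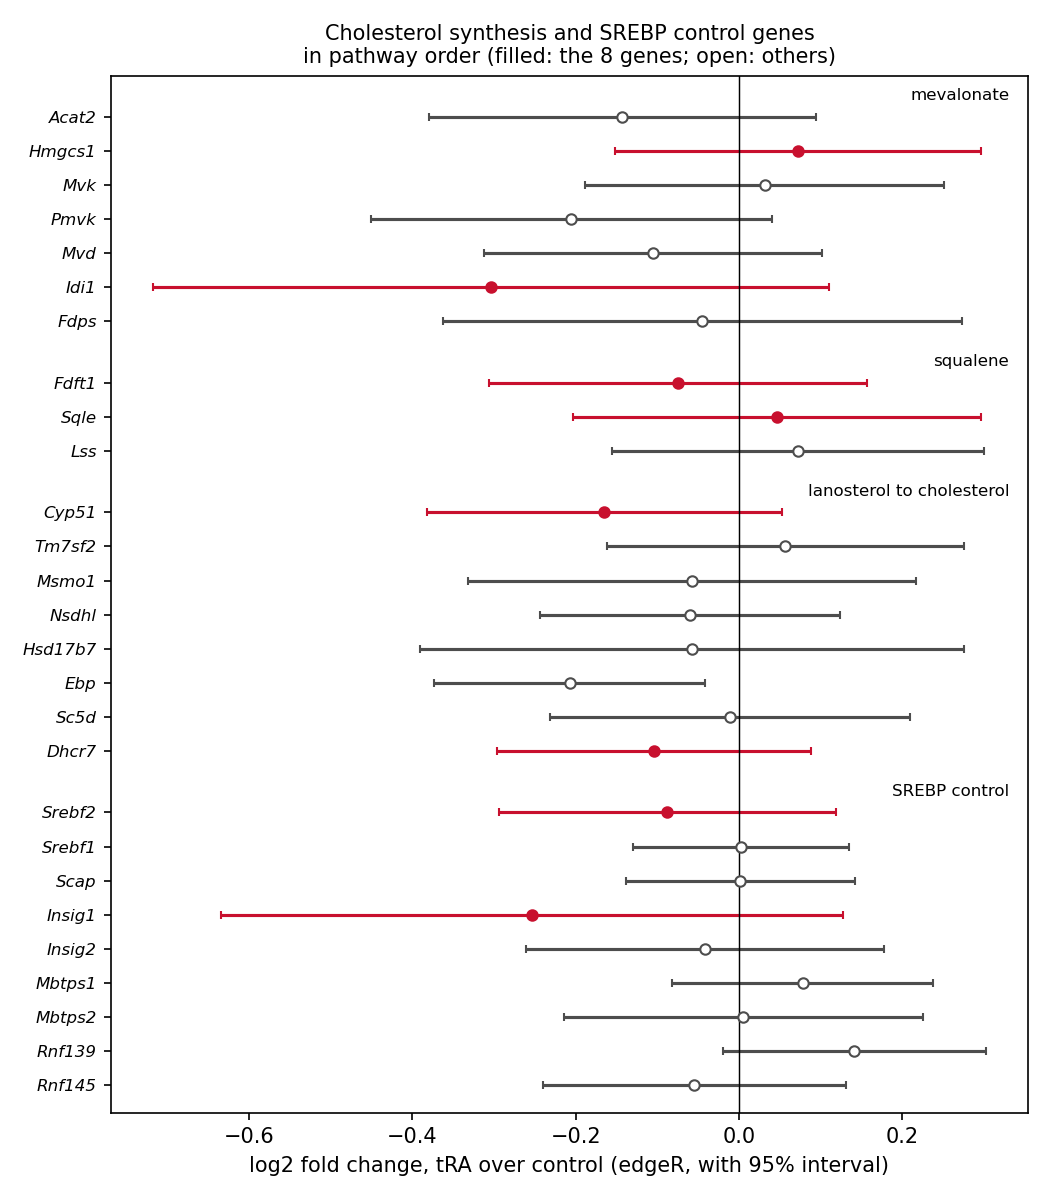
Log2 fold change of tRA over control (horizontal axis) for the 18 cholesterol synthesis genes and the 9 SREBP control genes in the order of the route (vertical axis), with 95% intervals from edgeR as bars and the 8 genes filled in red. The interval includes 0 for all 8 genes and, of the others shown, lies below 0 for Ebp.

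Of the 11 uptake and transport genes tested, 8 had a positive and 3 a negative log2 fold change, with 0 called. The lowest value was that of Scarb1, a receptor for high-density lipoprotein, which stood at 22.2, 38.9, 30.6 and 26.8 CPM in control mice 1 to 4 and 20.4, 25.9, 33.4 and 31.7 CPM in tRA mice 1 to 4, with the groups overlapping and a log2 fold change of -0.09 (SE 0.18, edgeR FDR 0.937) that became 0.07 without control mouse 2 and 0.035 without tRA mouse 1. The highest was Mylip, for a ubiquitin ligase, at 0.18 (SE 0.08, unadjusted p = 0.0472, edgeR FDR 0.757), and Gramd1a, a sterol transporter with the highest CPM on the list, had 0.08. Of the 8 efflux, storage and oxysterol genes tested, 2 were positive. Abca1, for a cholesterol exporter, had the highest log2 fold change of the list and stood at 112, 87.3, 66.6 and 86.1 CPM in control mice 1 to 4 and 106, 115, 87.4 and 123 CPM in tRA mice 1 to 4, a value of 0.29 (SE 0.15, edgeR FDR 0.778) that was 0.17 without control mouse 3 and 0.43 without control mouse 1 (unadjusted p = 0.00879, edgeR FDR 0.867). Apoe, which carries the exported lipid, had the lowest value of that list, -0.07, and its highest CPM. Of the 9 isoprenoid branch genes, 4 were positive and 5 negative, from -0.07 for Pdss2 to 0.12 for Ggps1, with 0.015 for Nus1, which had the highest CPM. Of the 10 fatty acid genes tested, 7 were positive and 3 negative, from -0.33 for Fads2 (SE 0.36) to 0.17 for Elovl6, with -0.06 for Scd1, which had the highest CPM.

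Because Insig1 and Idi1 moved together among mice and the route is known to be driven by SREBP2, the promoters of the genes were read for the letters that SREBP2 and its partner NF-Y are known to bind. RefSeq promoters of build GRCm38.p6 were found for 6 of the 8 genes, Hmgcs1, Srebf2, Idi1, Insig1, Cyp51 and Dhcr7, with 8 promoters in all, and the table has no entry for Fdft1 and Sqle. The 250 bases before each start were searched on both strands for TCACNCCA (a sterol regulatory element), CCAAT (the NF-Y box) and CACGTG (an E-box), and no match overlapped another. The first was found in 3.67% of all 32851 promoters in the table and in 2 of the 8 promoters, those of Hmgcs1 and Srebf2. CCAAT was found in 33.8% of all promoters and in 6 of the 8, and CACGTG in 6.02% of all promoters and in 2 of the 8, at Insig1 and Dhcr7. Dhcr7 has more than 1 promoter in the table, and its CCAAT boxes and its E-box are in different windows that lie wholly inside the annotated gene (250 of 250 bases), while the window at the annotated start has neither. A match describes the letters and was not tested as a binding site. The lack of a match does not show that a gene has no such element, as other spellings and other stretches were not searched. The promoters of Hmgcs1 and Srebf2, which hold the sterol element, and of Insig1 and Idi1, which moved together, are given 5′ to 3′ on the strand of the gene, with matches to any of the motifs in capitals. They lie at chr13:119690101-119690350 (Hmgcs1), chr15:82147019-82147268 (Srebf2), chr5:28071162-28071411 (Insig1) and chr13:8885356-8885605 (Idi1), all on the plus strand. In the gene models used for the positions above, the last 88, 49 and 105 bases of the windows of Srebf2, Insig1 and Idi1 lie inside the gene.
Hmgcs1: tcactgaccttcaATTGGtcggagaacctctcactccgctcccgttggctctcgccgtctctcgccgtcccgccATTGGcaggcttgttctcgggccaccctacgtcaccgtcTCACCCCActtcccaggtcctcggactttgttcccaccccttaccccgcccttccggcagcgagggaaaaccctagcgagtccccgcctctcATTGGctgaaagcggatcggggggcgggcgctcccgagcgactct
Srebf2: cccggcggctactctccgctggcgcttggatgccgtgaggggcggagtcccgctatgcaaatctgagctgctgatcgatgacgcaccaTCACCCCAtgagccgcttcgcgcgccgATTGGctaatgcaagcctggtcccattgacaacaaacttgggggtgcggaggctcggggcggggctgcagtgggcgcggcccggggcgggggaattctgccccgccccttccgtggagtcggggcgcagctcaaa
Insig1: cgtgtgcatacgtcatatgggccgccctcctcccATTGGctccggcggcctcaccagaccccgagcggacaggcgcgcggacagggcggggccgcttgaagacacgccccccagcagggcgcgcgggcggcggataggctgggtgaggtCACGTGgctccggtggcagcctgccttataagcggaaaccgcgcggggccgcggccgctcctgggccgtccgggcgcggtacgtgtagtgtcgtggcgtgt
Idi1: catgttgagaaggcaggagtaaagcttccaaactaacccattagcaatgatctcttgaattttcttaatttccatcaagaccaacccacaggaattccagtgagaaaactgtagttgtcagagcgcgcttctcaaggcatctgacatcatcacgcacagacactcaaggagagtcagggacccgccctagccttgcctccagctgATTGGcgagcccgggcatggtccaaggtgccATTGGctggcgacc

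In Hmgcs1 the sterol element begins 137 bases and in Srebf2 162 bases before the start, and in Srebf2 a CCAAT box on the opposite strand follows it at 135 bases. Insig1 has the E-box at 101 bases and an opposite CCAAT box at 216 bases before the start, and Idi1 has opposite CCAAT boxes at 45 and 14 bases. The CCAAT box was thus the sole motif of those searched that Insig1 and Idi1 had in common in these windows, but it does not set them apart, as all 6 genes with a promoter had it, Dhcr7 included.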

How the data were processed

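Total splenocytes of 4 control and 4 tRA mice were sequenced. The authors deposited raw gene counts of each mouse, without normalization, and CPM was computed here from the deposited counts. By the methods of the study, reads were trimmed with ea-utils and Btrim, aligned with Bowtie2 and Tophat2 and counted with HTSeq, whereas the submitters' processing notes name STAR 2.5.2b, featureCounts 1.5.1 and DESeq2 1.26.0 with GRCm38. Which of these made the counts, and whether the counting used strand, is not given in the sources used here. The table of the authors' own comparison (fold changes and adjusted p-values) was not used.

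Symbols, positions and exon lengths came from GENCODE M21, which held 51633 of the 51826 identifiers and not the other 193. Genes were kept by filterByExpr, scaled by TMM and tested with edgeR 4.0.16 (quasi-likelihood, R 4.3.3) over all 8 mice, with Benjamini-Hochberg adjustment over all genes tested and a threshold of 0.1. Correlations used log2 of CPM plus 0.5, and group means were not taken anew where mice were left out of a correlation. The fits were tested on simulated data, but no outcome of that is given here and no result rests on it. The alternatives were RLE normalization, library size alone, no filter, at least 10 counts in every sample, DESeq2 1.42.0, limma-voom (limma 3.58.1), the sample number as a replicate block and each mouse left out, and, after the values were seen, tRA mice 3 and 4 left out together.

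Named were the 8 genes, the genes of synthesis and SREBP control, from the other lists the gene with the highest CPM in the control mice, those with an unadjusted p under 0.05 and the lowest and highest log2 fold change, and the 10 genes most like the mean of the 8. The marker lists were B cell, T cell, neutrophil precursor granules, macrophage, erythroid, proliferation, immediate early, stroma, and kidney or liver. The 8 genes and all lists were chosen with earlier results of these data known. Some genes of the lists are not reported here, and counts over lists leave them out.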

Additional observations from a re-analysis of the deposited data

Results flagged for a closer look

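Among 76 groups of 4 mice examined, the 2 groups of each of 38 genes named from the lists of the cholesterol route, 3 held a mouse far from the others of its group, where chance gives about 3.8. All 3 were tRA mouse 4 and none concerned the 8 genes. It had 9.23 CPM of Tm7sf2, against 9.76 CPM in the nearest of the other tRA mice, 9.41 CPM of Hsd17b7, against 8.41 CPM in the nearest, and 782 CPM of Scd1, against 709 CPM in the nearest.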

How the results depend on the processing

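The 8 genes were not called at an FDR under 0.1 in any alternative, with a lowest FDR of 0.357 (Insig1 without tRA mouse 1). Their signs held under RLE normalization, library size alone, both filters, DESeq2, limma-voom and the replicate block. With each mouse left out, Sqle ranged from -0.032 to 0.14, and with both tRA mice 3 and 4 left out Insig1 was 0.036 and Fdft1 0.048. As the mice left out together had the lowest Insig1 and Fdft1, those values are no test. The unadjusted p, at least 0.05 for all 8 in the main test, was under 0.05 for Insig1 without tRA mouse 1 (0.0328) and under the replicate block (0.0360), for Cyp51 without control mouse 4 (0.0391) and for Dhcr7 with both tRA mice 3 and 4 left out (0.0318). The last of these follows from leaving out the tRA mice with the highest Dhcr7 and is no test. No reason for the other shifts was tested. Idi1 had the largest counting error of the 8 genes (8.61%). Its SE (0.19) was nonetheless close to that of Insig1 (0.17), which had a counting error of 2.88%. The part of counting in the precision of Idi1 was not tested.

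The number of all genes called was 0, and it was 6 with no filter, 27 with DESeq2, 1 with limma-voom, 3 with both tRA mice 3 and 4 left out and between 0 and 3 (without tRA mouse 4) when single mice were left out. At an unadjusted p under 0.05 it was 678 with both left out and 657 (without tRA mouse 4) to 2105 (without tRA mouse 1) with each mouse left out. Under each scaling the median log2 fold change of all genes was at most 0.031.

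Same-numbered mice of both groups had correlations of 0.210, -0.0236, -0.0219 and 0.308 between their deviations. Mice of different numbers were not compared in this way, so these values cannot show whether the numbers mark a pairing. Under the replicate block, 0 genes were called, with 1200 at an unadjusted p under 0.05, and no call at an FDR under 0.1 changed. There edgeR gave -0.29 for Insig1 (FDR 0.677) and 0.30 for Abca1 (unadjusted p = 0.0147, FDR 0.656).

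The 10 genes most like the mean of the 8 and the marker genes were not run under the alternatives. For the other 30 genes named from the lists of the cholesterol route, 439 of 480 values kept their sign and side of the threshold and 41, in 16 genes, changed sign. With each mouse left out the log2 fold changes ranged from -0.15 to 0.0040 for Msmo1, -0.19 to 0.041 for Hsd17b7, -0.016 to 0.038 for Srebf1, -0.029 to 0.028 for Scap, -0.026 to 0.057 for Nus1, -0.56 to 0.046 for Fads2, -0.12 to 0.024 for Fdps, -0.010 to 0.12 for Lss, -0.097 to 0.054 for Sc5d, -0.10 to 0.040 for Insig2, -0.061 to 0.081 for Mbtps2, -0.13 to 0.0031 for Apoe, -0.15 to 0.0054 for Pdss2, -0.20 to 0.072 for Scarb1 and -0.0077 to 0.081 for Mvk. Without a change of sign, they ranged from -0.20 to -0.089 for Acat2, -0.28 to -0.10 for Pmvk, -0.17 to -0.041 for Mvd, 0.011 to 0.079 for Tm7sf2, -0.099 to -0.023 for Nsdhl, -0.25 to -0.17 for Ebp, 0.044 to 0.12 for Mbtps1, 0.097 to 0.17 for Rnf139, -0.13 to -0.0068 for Rnf145, 0.024 to 0.12 for Gramd1a, 0.14 to 0.24 for Mylip, 0.17 to 0.43 for Abca1, 0.050 to 0.16 for Ggps1, -0.12 to -0.012 for Scd1 and 0.087 to 0.23 for Elovl6. Sc5d was 0.014 with library size alone and Scap -0.00098 under the minimum of 10 counts in every sample. With both tRA mice 3 and 4 left out, the values were -0.053 for Lss, 0.046 for Msmo1, 0.14 for Sc5d, -0.051 for Scap, -0.058 for Mbtps2 and 0.065 for Rnf145.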
